A study of Mus musculus with 16 samples.

Results

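The regions described here are 4171 H3K4me3 peaks of mouse late 2-cell embryos that were retained after injection of Hdac1 mutant mRNA and that overlapped an H3K27ac peak only in the mutant-injected embryos. They were selected on measured values, namely the positions in 4 deposited peak lists. A region is a peak of the control H3K4me3 list on chromosomes 1 to 19, between 2000 and 10000 bp wide, that overlapped by at least 1 bp a mutant H3K4me3 peak and a mutant H3K27ac peak and did not overlap a control H3K27ac peak. The control H3K4me3 list held 86857 peaks, of which 33191 met the limits on chromosome and width, and 23666 of these (71.3%, 95% Wilson interval 70.8 to 71.8) were retained. The gaining peaks were 17.6% of the retained ones. The other retained peaks fell into 10322 with H3K27ac in both lists (43.6%), 4106 that lost it (17.3%) and 5067 with H3K27ac in neither list (21.4%).

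Both marks were mapped in embryos 36 h after fertilization by native chromatin immunoprecipitation from very few cells (ULI-NChIP-seq), in which unfixed chromatin is cut with micrococcal nuclease and the fragments held by an antibody are sequenced. Control zygotes had received water, and mutant zygotes had received mRNA of an Hdac1 mutant, whose mutation the labels do not name. The labels record no deletion of Hdac1 or Hdac2 in either group, and the state of the embryos' own enzymes was not tested. No strain is given. Each mark in each condition had 2 immunoprecipitation libraries and 2 input libraries, but 1 peak list without heights or scores. There is therefore no replicate error and no known depth, no test of the conditions was possible, and "gained" means listed in one list and not in the other. Intervals cover counting error only, and neighbouring peaks are not independent.

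H3K4me3 is laid down by the Kmt2 and Setd1 methyltransferases and marks the starts of genes. In mouse oocytes it also forms broad domains away from starts, which the early embryo inherits and clears around the time its own genome is switched on. H3K27ac is written by the acetyltransferases Crebbp and Ep300, marks active promoters and enhancers, and is removed by class I deacetylases, of which Hdac1 and Hdac2 are the main nuclear pair, working in the Sin3, NuRD and CoREST complexes. A peak that carries H3K4me3 without H3K27ac is therefore a place where the promoter mark is present and the acetylation is not listed.

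The promoters of 7 genes whose start lay in a gaining peak are shown first, because they stand for the gene groups described below and differ in acetyl cover and base composition. Each is the 250 bases before the RefSeq start, read 5′ to 3′ on the strand of the gene, on GRCm38.p6. Capitals mark matches on either strand to the CCAAT box (CCAAT), the GC box (GGGCGG), the cyclic AMP element (TGACGTCA), the E-box (CACGTG), the ETS core (CCGGAAG) and the TATA box (TATAAA), and matches of different motifs may overlap. Nobox and Cpeb1 are oocyte genes, with chr6:43309555-43309804 and chr7:81454759-81455008, both on the minus strand, and their starts lay under mutant H3K27ac.
Nobox: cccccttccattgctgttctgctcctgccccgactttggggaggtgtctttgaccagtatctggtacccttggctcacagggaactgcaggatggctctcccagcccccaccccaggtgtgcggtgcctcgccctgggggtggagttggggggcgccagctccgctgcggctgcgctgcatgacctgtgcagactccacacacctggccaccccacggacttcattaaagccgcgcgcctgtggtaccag
Cpeb1: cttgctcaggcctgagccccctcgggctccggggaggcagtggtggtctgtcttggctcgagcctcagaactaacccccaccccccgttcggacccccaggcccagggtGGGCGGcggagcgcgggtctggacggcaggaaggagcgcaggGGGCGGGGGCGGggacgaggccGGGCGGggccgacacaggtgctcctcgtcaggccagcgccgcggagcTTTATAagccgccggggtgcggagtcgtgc
Figla is an oocyte gene on the plus strand (chr6:86016941-86017190) whose start lay outside the mutant H3K27ac peak of its region.
Figla: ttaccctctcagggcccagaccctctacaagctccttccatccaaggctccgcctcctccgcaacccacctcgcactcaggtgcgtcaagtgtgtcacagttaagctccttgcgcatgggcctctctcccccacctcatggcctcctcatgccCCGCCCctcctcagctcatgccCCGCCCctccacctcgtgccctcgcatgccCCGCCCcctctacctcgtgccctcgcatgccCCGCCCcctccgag
Hat1 encodes a histone acetyltransferase (plus strand, chr2:71389010-71389259), and its window holds the ETS core together with CCAAT, GC box and E-box letters. Its start lay under mutant H3K27ac.
Hat1: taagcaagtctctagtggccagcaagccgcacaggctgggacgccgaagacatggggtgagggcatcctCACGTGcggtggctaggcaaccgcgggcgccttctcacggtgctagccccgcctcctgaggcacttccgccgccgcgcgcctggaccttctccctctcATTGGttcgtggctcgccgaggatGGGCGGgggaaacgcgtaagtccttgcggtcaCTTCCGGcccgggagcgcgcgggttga
Cdkn1b encodes a cell cycle inhibitor (plus strand, chr6:134920151-134920400) and Wnt1 a secreted ligand (plus strand, chr15:98789607-98789856). The starts of both lay under mutant H3K27ac.
Cdkn1b: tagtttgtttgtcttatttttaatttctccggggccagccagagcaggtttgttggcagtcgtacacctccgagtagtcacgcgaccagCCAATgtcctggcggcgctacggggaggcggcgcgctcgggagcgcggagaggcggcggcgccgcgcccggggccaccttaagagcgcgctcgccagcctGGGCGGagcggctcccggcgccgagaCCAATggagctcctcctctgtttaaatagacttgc
Wnt1: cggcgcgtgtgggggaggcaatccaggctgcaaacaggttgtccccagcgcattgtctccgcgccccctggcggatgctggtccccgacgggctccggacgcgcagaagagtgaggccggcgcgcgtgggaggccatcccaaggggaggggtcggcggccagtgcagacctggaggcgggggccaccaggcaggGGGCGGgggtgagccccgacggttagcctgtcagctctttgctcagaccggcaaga
Pax6 encodes an eye and brain transcription factor (plus strand, chr2:105682213-105682462), and its start lay outside mutant H3K27ac.
Pax6: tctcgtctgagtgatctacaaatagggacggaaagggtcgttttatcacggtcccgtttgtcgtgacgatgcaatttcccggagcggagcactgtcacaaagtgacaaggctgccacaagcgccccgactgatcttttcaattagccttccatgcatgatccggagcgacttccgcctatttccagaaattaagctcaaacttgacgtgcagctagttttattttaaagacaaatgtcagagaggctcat
The windows differed widely in composition. Cpeb1 had 74.0% G and C and 4 GC boxes, Figla 67.2% and 4 GC boxes, and Cdkn1b 64.4% with 28 CpG pairs, a ratio of observed to expected CpG of 1.08. Nobox had 65.2% G and C but a CpG ratio of 0.418, and Pax6 had 47.6% with a ratio of 1.06. Nobox and Pax6 held none of the 6 motifs.

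Of the 19 gene lists examined, the oocyte and maternal list had the largest share of its genes in gaining peaks. It had 22 of 32 genes with a start in the table, and 7 of these (31.8%) had a start in a gaining peak: Nobox, Figla, Lhx8, Sohlh2, Kit, Zar1 and Cpeb1. Over all 16457 coding genes with a start in the table, 1274 (7.74%) did. Only 3 of the 22 lay in peaks with H3K27ac in neither list, 2 in peaks with it in both and 1 in a losing peak. Of the 10 in a retained peak without control H3K27ac, 70.0% gained it, against 45.1% over all genes. The cell cycle list was higher by that measure, at 75% of 8, and the acetyltransferase, splicing and housekeeping lists stood at 100% of 3, 2 and 2 genes. A start lay under mutant H3K27ac for 3 of the 7 genes, against 753 of the 1274 over all gaining genes, and the median cover of the 7 regions was 26%, against 48.9% over all regions with a coding start. The list was chosen with earlier results of these data known, and its 7 genes are too few for more than a description.

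Nobox, Figla, Lhx8 and Sohlh2 encode transcription factors that drive oocyte growth in the ovary. The Nobox region (chr6:43305958-43310392, 4435 bp) had 3793 bases (85.5%) under 2 mutant H3K27ac peaks, and its mutant H3K4me3 peak was 10313 bp wide. The Sohlh2 region had 1343 of 3742 bases (35.9%) covered and the Figla region (chr6:86015077-86018113) 791 of 3037 bases (26%). At Lhx8 405 of 6873 bases (5.89%) were covered. The starts of Nobox and Sohlh2 lay under mutant H3K27ac, and those of Figla and Lhx8 did not.

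The other 3 act in signalling or in handling maternal RNA. Cpeb1, which binds stored maternal mRNAs and controls their polyadenylation, had the fullest cover, with 5855 of 6033 bases (97.0%) of its region (chr7:81451131-81457163) under 1 mutant H3K27ac peak of 8038 bp. Kit, the receptor for stem cell factor, had 605 of 4850 bases (12.5%) covered. Zar1, needed for the passage from oocyte to embryo, had 338 of 3044 bases (11.1%), from a single peak of 338 bp. The nearest control H3K27ac peak lay 17655 bp from the Nobox region, 17946 bp from Figla, 19469 bp from Zar1 and 13532 bp from Lhx8. It lay 5493 bp from Kit, 3351 bp from Sohlh2 and 3302 bp from Cpeb1. In the map of 6 loci the mutant H3K27ac blocks of Nobox, Figla and Zar1 stand where the control H3K27ac row is empty for 20 kb on both sides.

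**Figure D1:**
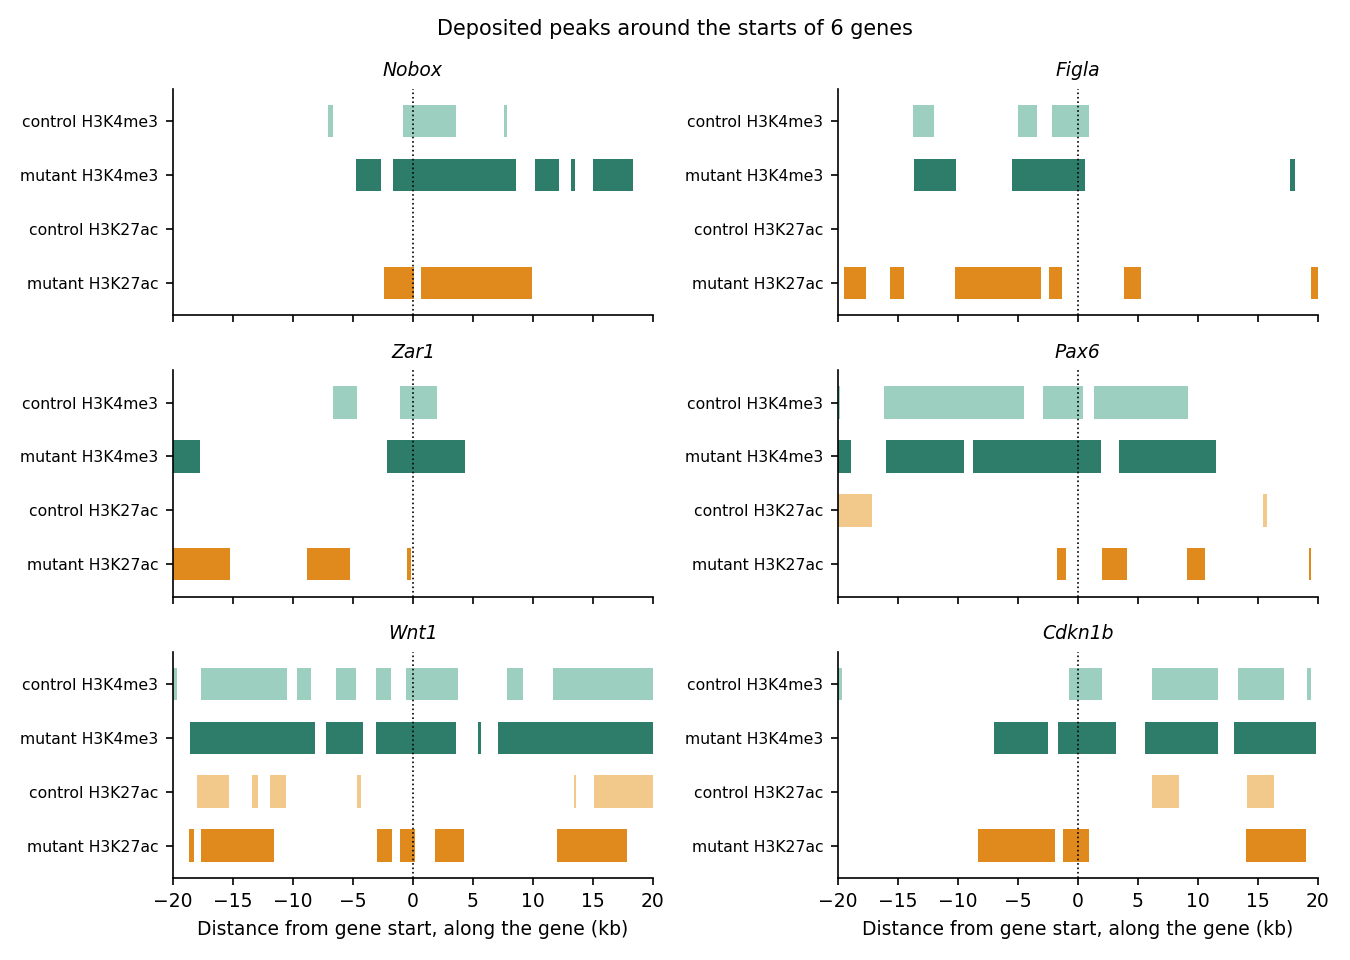
Deposited peaks within 20 kb of the starts of 6 genes, with distance along the gene in kb on the horizontal axis, 1 row per list and the start as a dotted line. Mutant H3K27ac covers the starts of Nobox, Wnt1 and Cdkn1b, and lies beside the starts of Figla, Zar1 and Pax6, where the control H3K4me3 peak is already present.

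The cell cycle genes in gaining peaks were a mixed set of regulators. Of 39 genes with a start in the table, 6 (15.4%, against 7.74% of all genes) lay in gaining peaks, 9 in peaks with H3K27ac in both lists, 6 in losing peaks and 2 in peaks with it in neither. Ccnd3, a D-type cyclin, had its whole region of 4953 bases under a mutant H3K27ac peak of 12131 bp that also reached a control H3K27ac peak outside the region. E2f2, an activator of replication genes, had all of its 2208 bases covered. Its mutant H3K4me3 peak measured 25020 bp, 11.3 times the control peak, and took in 4 control peaks. Cdkn1b, the inhibitor p27, had 1593 of 2681 bases (59.4%) covered, Cdk6 2990 of 6454 (46.3%) and Trp53 2429 of 6786 (35.8%). E2f3 had 164 of 3281 bases (5.0%).

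Signalling genes of the Wnt, FGF, BMP and Notch pathways had 9 of 55 genes in gaining peaks (16.4%, against 7.74% of all genes), with 14 in peaks with H3K27ac in neither list, 9 in both and 10 losing. The 9 were 39.1% of the 23 genes in gaining peaks or peaks with neither, below the 45.1% over all genes. Ligands and receptors were both present. Among the ligands, Wnt1 (chr15:98789237-98793585) had 2654 of 4349 bases (61.0%) under mutant H3K27ac, Wnt2 2164 of 4148 (52.2%) and Wnt6 154 of 7193 (2.14%). Ihh, a hedgehog ligand, had 1510 of 6678 bases (22.6%) and Bmp6 882 of 5726 (15.4%). The Wnt receptors Fzd7 and Fzd4 had 7179 of 7894 bases (90.9%) and 3235 of 4418 bases (73.2%). The Notch3 receptor had 1578 of 3230 bases (48.9%), and Axin2, a feedback inhibitor of Wnt signalling, 3526 of 7041 (50.1%). The start lay under mutant H3K27ac for 7 of the 9, the exceptions being Wnt6 and Fzd4, against 753 of 1274 over all gaining genes.

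Trophectoderm and Hippo genes, which set apart the outer cells of the blastocyst, had 5 of 26 in gaining peaks (19.2%, against 7.74% of all genes) and 5 in peaks with neither. Both classes together thus held 10 genes of the list, 5 in each, where 45.1% gained over all genes. Amotl2, a Hippo pathway scaffold, had 3974 of 6252 bases (63.6%) covered, including its start. The cover was small at Bmp4 (34.4%), at the keratin gene Krt8 (19.6%) and at Gata2 (17%). At Fgfr2 it was 8 of 4180 bases, so its place among the gaining peaks rests on those bases. A region in Dytn had as few, 8 of 5656 bases (0.141%), and no gaining peak had fewer. Pluripotency genes had 2 of 22 in gaining peaks (9.09%, near the share of all genes), Sox2 with 2411 of 3129 bases (77.1%) and Sall1 with 3060 of 6701 (45.7%). At Sox2 the cover left out the start. The mutant H3K4me3 peak there was 23728 bp wide, 7.58 times the control peak, and took in 4 control peaks.

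Developmental transcription factors, many of which are held silent by Polycomb proteins in early embryos, were present in gaining peaks and, in larger number, in peaks that had H3K27ac in neither list. Of 78 genes, 12 (15.4%, against 7.74% of all genes) lay in gaining peaks and 28 in peaks with neither. The gaining ones were 30.8% of the 39 genes of the list in either class, against 45.1% over all genes. Their acetyl cover had a median of 26.8% of the region, near the medians of the oocyte list and of the imprinted (23%), acetyltransferase (21.2%) and trophectoderm (19.6%) lists. Hoxd1 had all of its 2738 bases covered and Irx2 3513 of 5385 bases (65.2%). Pax6 had 775 of 3348 (23.1%), Sox1 684 of 3440 (19.9%) and Foxa2 22 of 3401 (0.647%). The start itself lay under mutant H3K27ac for 3 of the 12 (Hoxd1, Hoxa10 and Irx2), against 753 of 1274 over all gaining genes.

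Ion channel and synapse genes, which serve neurons, had 4 of 38 in gaining peaks (10.5%, against 7.74% of all genes) and 12 in peaks with neither. The 4 were 25% of the 16 in either class, below the 45.1% over all genes. The 4 were Nrxn3, Syt1, Cacna1e and Kcnd2, all with a start under mutant H3K27ac and with 53.6% to 76.6% of the region covered. The Syt1 region, at a gene for a synaptic calcium sensor, lay 216159 bp from the nearest control H3K27ac peak, the longest such distance of any gaining peak. Adhesion genes had 5 of 34 (14.7%), or 41.7% of the 12 in gaining peaks or peaks with neither, namely Cdh8 (65.3% covered), Cdh7 (39.7%), Nectin3 (37.6%), Itgb8 (25.2%) and Pcdh10 (4.86%).

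Among genes that write, read or remove acetylation, the gains were at 3 writers or coactivators and 1 corepressor. Hat1, which acetylates newly made histone H4, had 3764 of 4557 bases (82.6%) covered. Ncoa1, a nuclear receptor coactivator, had 887 of 4186 bases (21.2%) and Crebbp 426 of 2119 (20.1%), both without the start. These were 3 of 19 acetyltransferase and bromodomain genes (15.8%, against 7.74% of all genes), and 7 of the 19 lay in peaks with H3K27ac in both lists. Below the share of all genes, 1 of 38 deacetylase and corepressor genes (2.63%), Mier1, lay in a gaining peak, with 17.6% of it covered, and 12 had H3K27ac in both lists. Polycomb genes had 1 of 26 (3.85%), Cbx8, with 4386 of 5143 bases (85.3%) covered. None of 15 H3K4 methylation genes did, but none of them lay in a retained peak without control H3K27ac. Of the deacetylase and Polycomb lists 7 genes each lay in such a peak. In each list 14.3% of these 7 gained, against 45.1% over all genes.

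Starts of genes for basic cell functions lay under control H3K27ac for 32 of 38 ribosome biogenesis, 29 of 36 splicing and 18 of 23 housekeeping genes, against 6137 of all 16457. No ribosome biogenesis gene of 38 lay in a gaining peak, against 14 in peaks with H3K27ac in both lists and 7 losing. None of the 38 lay in a retained peak without control H3K27ac. Splicing genes had 2 of 36 (5.56%), Hnrnpu with 7176 of 9949 bases (72.1%) and Prpf6 with 3590 of 5703 (62.9%), against 17 with both. Housekeeping genes had 2 of 23 (8.70%, against 7.74% of all genes), the glycolytic genes Eno1 (65.0% covered) and Pkm (22.9%). Imprinted genes had 2 of 26 (7.69%, near the share of all genes), Gnas, with 2 regions, and Rasgrf1. Interferon and innate immune genes had 1 of 29 (3.45%), Oas1a. In the plot of gene lists the oocyte list has the longest bar for H3K27ac in the mutant list only, while splicing, ribosome biogenesis and housekeeping genes have theirs under both.

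**Figure D2:**
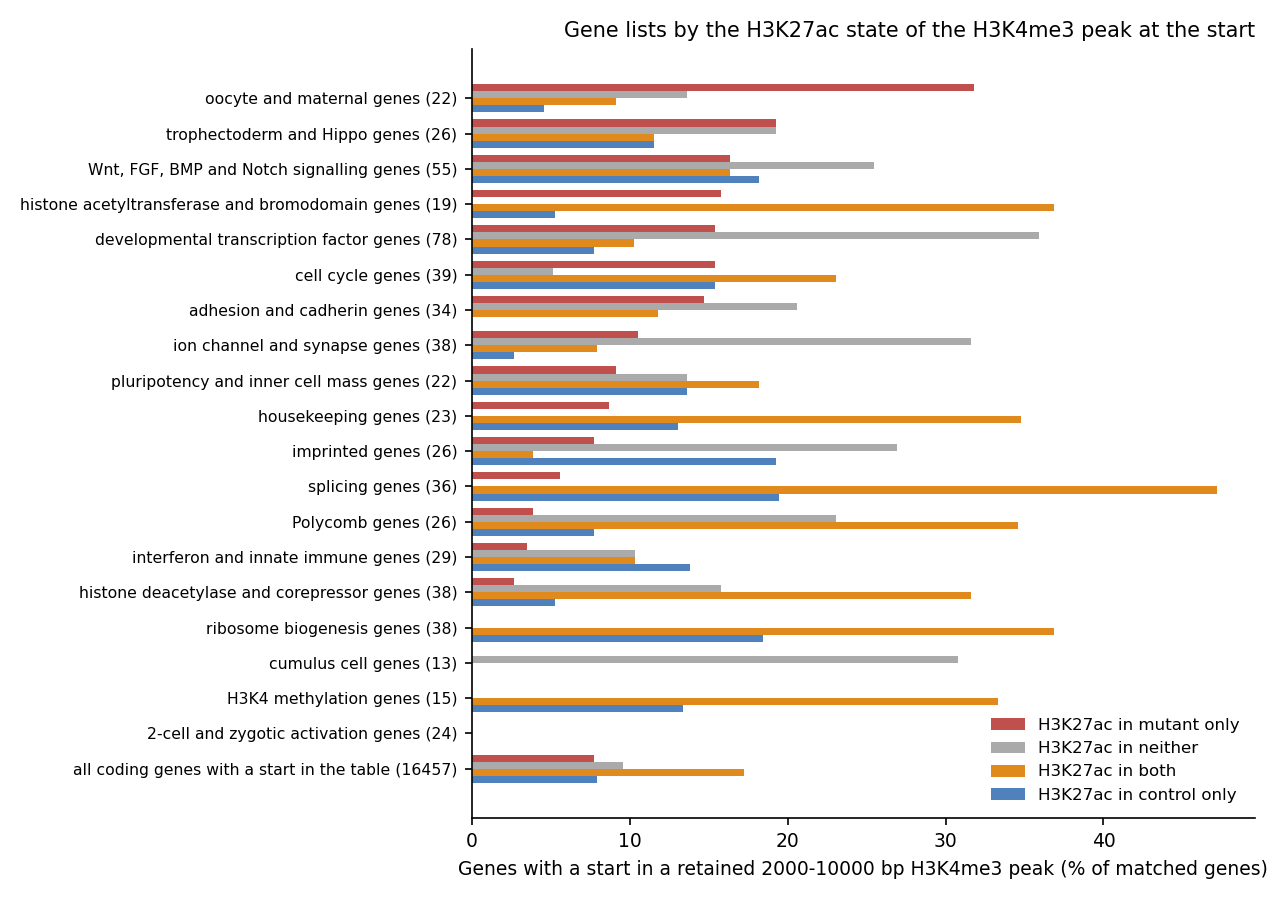
Share of the matched genes of each list (%, number matched in parentheses) with a start in a retained H3K4me3 peak of 2000 to 10000 bp, by the H3K27ac state of that peak. H3K27ac in the mutant list only reaches 31.8% for oocyte and maternal genes, against 7.74% over all coding genes.

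Genes of the 2-cell stage and of follicle cells were counted with marker lists, which give no test of the stage of the embryos. None of the 24 matched 2-cell and zygotic activation genes had a start in a retained peak of this width. Usp17lc had a start within 2 kb of a gaining peak, of which 185 of 6865 bases (2.69%) lay under mutant H3K27ac. The starts of the 24 lay under control H3K27ac for 14 genes and under mutant H3K27ac for 7. Over all 16457 coding genes the counts were 6137 and 4982. For control and mutant H3K4me3 they were 11 and 16 of the 24 genes, against 11349 and 10800 over all. Of 13 cumulus cell genes, which mark the somatic cells around the egg, 1 start lay under control and 0 under mutant H3K27ac, and none lay in a gaining peak. Under H3K4me3 lay the starts of 7 of the 13 in control and 6 in mutant. In retained peaks with H3K27ac in neither list lay 4 of the 13 genes. A part of somatic cells in the gains was not tested beyond these counts.

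Across all gaining peaks the median width of the H3K4me3 peak was 3713 bp (quartiles 2745 and 5139), and that of the mutant H3K27ac peak with the most bases in it was 2669 bp (1304 and 4928). Within the H3K4me3 peak, mutant H3K27ac covered a median of 1887 bases and a median of 52.6% of its length (95% interval of the median from order statistics 50.6 to 54.3), with quartiles of 24.1% and 81.4%. At least 50% was covered in 2171 peaks (52.0%), the whole peak in 542 (13.0%) and less than 10% in 456 (10.9%). All H3K27ac lay inside the H3K4me3 peak for 1263 regions (30.3%), and 750 (18%) held more than 1 H3K27ac peak. Cover by mutant H3K4me3 was fuller, with a median of 89.9% and 1569 peaks (37.6%) covered whole. In the plot of cover the H3K4me3 bars pile up in the last class, whereas the H3K27ac bars stay between 320 and 773 peaks in every class.

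**Figure D3:**
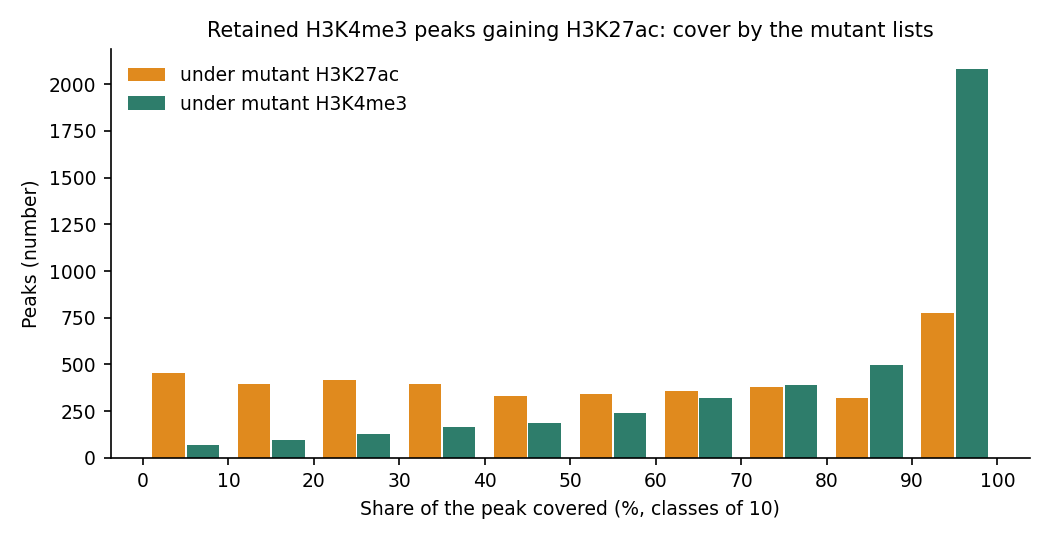
Number of gaining peaks (of 4171) by the share of the peak under mutant H3K27ac (orange) or mutant H3K4me3 (green), in classes of 10%. H3K27ac cover is spread over all classes with 773 peaks in the highest, and H3K4me3 cover has 2083 peaks there.

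At the limits of the definition, the narrowest gaining peak was 2000 bp and the next excluded peak 1999 bp, and the widest were 9997 bp inside and 10007 bp outside. The closest peak without mutant H3K27ac lay 3 bp from one, and the closest control H3K27ac lay 3 bp from a gaining peak. The same overlaps held for 2444 narrower and 150 wider peaks. When at least 50% of the peak had to be covered in both mutant lists, 1915 peaks remained under the definition instead of 4171, and the share that gained was 25% instead of 45.2%.

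The overlap of both mutant marks was counted by base, within regions selected to hold both. The gaining peaks held 17.4 Mb, of which 13.6 Mb lay under mutant H3K4me3 and 8.73 Mb under mutant H3K27ac. H3K27ac covered 53.7% of the bases still under H3K4me3 and 38.0% of those no longer under it. In 265 peaks (6.35%) no base carried both marks. Around the centres of the gaining peaks, mutant H3K27ac covered 56.9% of positions at the centre, 26.1% and 25.3% at 5 kb on either side, and 19% at 20 kb to the right. Mutant H3K4me3 covered 84.8% at the centre and 83.1% at the centre of peaks with H3K27ac in neither list, where the selection requires an overlap in both classes. On the flanks it covered more around gaining peaks, 36.1% against 28.9% at 5 kb to the left and 35.4% against 29.1% to the right. Control H3K4me3 was higher there too, at 19.7% against 17.6% and 19.6% against 17.5%. Around starts, at 5 kb before them, mutant H3K4me3 covered 34.8% in gaining peaks, 26.6% with neither, 36.8% in losing peaks and 47.0% with both.

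**Figure D4:**
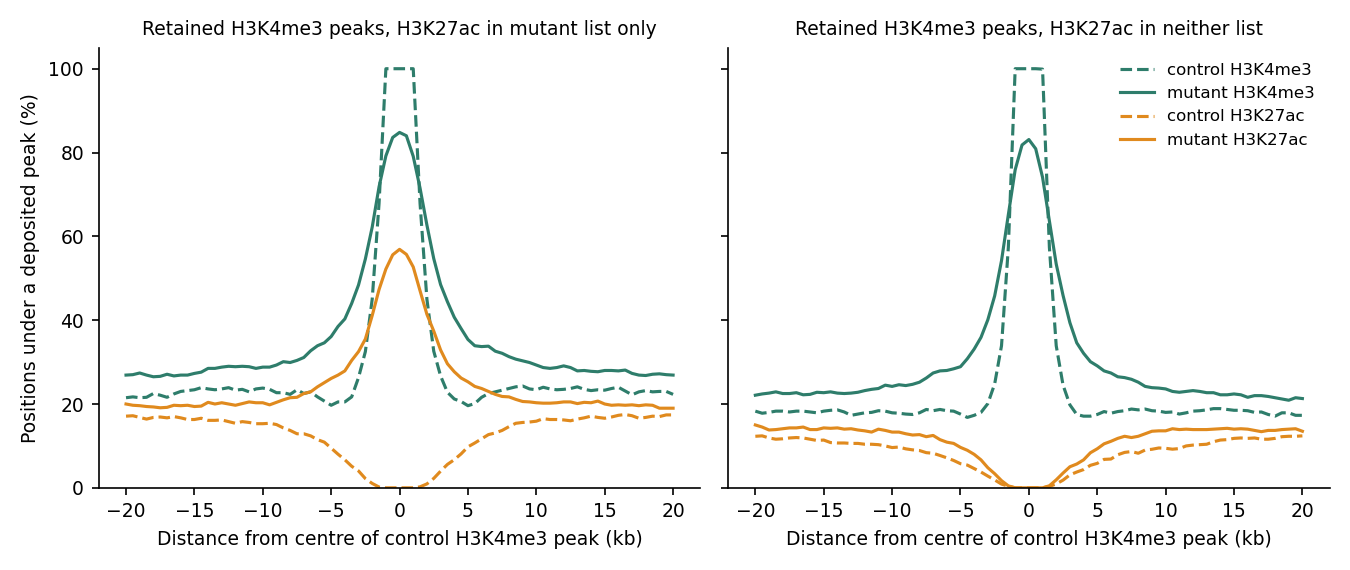
Share of positions under a deposited peak (%) by distance from the centre of the control H3K4me3 peak (kb), for gaining peaks (left) and peaks with H3K27ac in neither list (right), dashed for control and solid for mutant lists. Mutant H3K27ac stands at 56.9% over the centres on the left and at 0 on the right, which the definition of the classes sets, and mutant H3K4me3 at 84.8% and 83.1%, where both classes require an overlap.

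The distance to acetylation in control embryos varied widely. The nearest control H3K27ac peak was a median of 6777 bp away, against 9566 bp for peaks with neither, and 365 gaining peaks (8.75%) had one within 1 kb, while 1620 (38.8%) had none within 10 kb. At 20 kb from the centre control H3K27ac covered 17.1% and 17.4% of positions around gaining peaks, and 12.3% and 12.4% around peaks with neither. Among the retained peaks without control H3K27ac, 4171 of 9238 (45.2%, 44.1 to 46.2) gained it. This share was 52.9% (49.2 to 56.6) where control H3K27ac lay within 1 kb and 35.7% (31.8 to 39.8) where it lay over 50 kb away. In 530 regions (12.7%) the mutant H3K27ac peak ran on into a control H3K27ac peak elsewhere, and this held for 52.3% of the regions within 1 kb and for 0 of 778 between 10 and 20 kb away.

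The share that gained was set out by width, which the selection used, and a wider peak meets an overlap of 1 bp more easily. Of retained peaks without control H3K27ac, 38.3% (36.7 to 39.9) of those between 2000 and 3000 bp gained it, and 59.6% (55.7 to 63.4) of those between 7000 and 10000 bp. The median share of a gaining peak that was covered went the other way, from 64.4% in the narrowest class to 36.0% in the widest. Peaks without control H3K27ac that were not retained in the mutant H3K4me3 list also had mutant H3K27ac, in 1452 of 4219 (34.4%, 33.0 to 35.9). Their share was lower than that of retained peaks in the narrowest class, at 28.9% (27.1 to 30.7), and overlapped it in counting error in the widest, at 57.1% (45.5 to 68.1). In the widest class, peaks holding a coding start gained in 51.0% (44.1 to 57.8) and the others in 63.2% (58.3 to 67.9). In the classes of 3000 to 4000 and 4000 to 5000 bp the order was the other way, with 46.1% against 43.1% and 49.5% against 48.8%, differences within counting error. For scale, 28.5% (27.7 to 29.2) of the retained peaks with control H3K27ac lost it. The mutant H3K27ac list held 114737 peaks on these chromosomes against 73320 in control, over 237.2 and 241.8 Mb, and the part of this larger number in the gains was not tested.

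**Figure D5:**
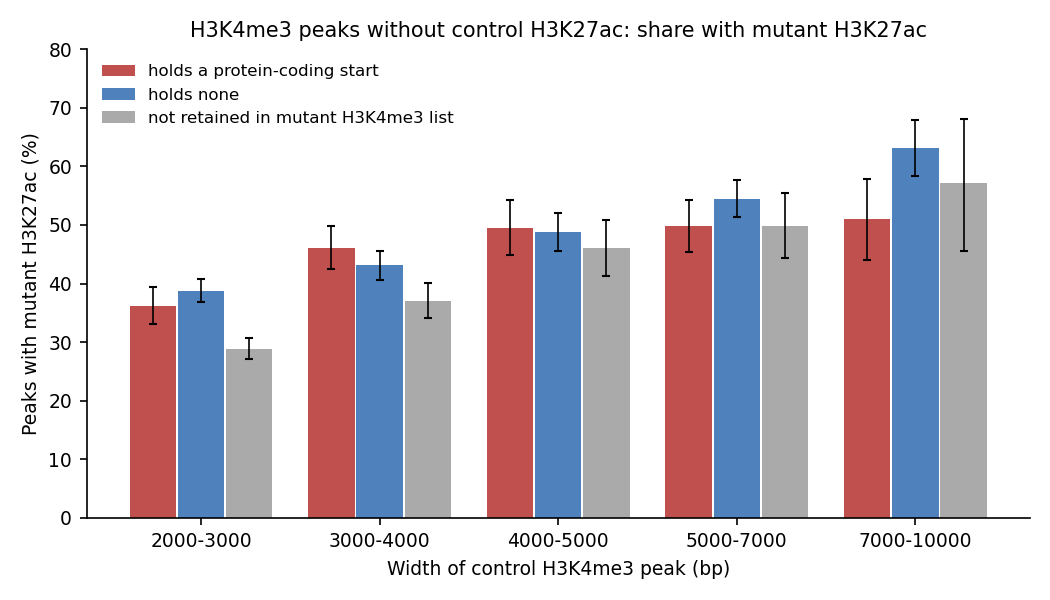
Share of control H3K4me3 peaks without control H3K27ac that overlapped mutant H3K27ac (%, 95% Wilson intervals) by peak width (bp), for retained peaks with and without a coding start and for peaks not retained. All 3 series are higher in the widest class than in the narrowest, from 36.2% to 51.0%, 38.7% to 63.2% and 28.9% to 57.1%.

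H3K4me3 itself was usually wider in the mutant list over these regions. The mutant peak was wider than the control peak in 2772 regions (66.5%, 65.0 to 67.9), against 63.5% (62.2 to 64.8) of peaks with H3K27ac in neither list and 62.3% of those with both. The median ratio of widths was 1.35 (1.31 to 1.39) in gaining peaks, 1.26 with both and 1.25 in each of the other classes. A mutant peak that joined several control peaks was found over 1214 regions (29.1%), against 24.3% of peaks with H3K27ac in neither list and 39.5% of those with it in both. With a lower width limit of 3000 bp the median ratio was 1.21 and with 1000 bp it was 1.55, so its size depends on which peaks are admitted. The mutant H3K4me3 list was also larger on the chromosomes used, with 83290 peaks over 272.9 Mb against 83220 over 246.7 Mb in control. The limits of 2000 and 10000 bp applied to the control peak only, and the mutant peaks measured 185 to 58392 bp. The part of the larger list and of these limits in the wider mutant peaks was not tested.

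The largest and smallest ratios came from named places. At the tubulin gene Tuba1c a control peak of 2587 bp lay within a mutant H3K4me3 peak of 49222 bp, 19 times wider, which took in 6 control peaks. The corresponding ratios were 15.6 at Nt5c1a, 15.2 at Ctbp2, which encodes a corepressor, and 15.1 at Pom121l2. The mutant peaks there took in 4, 6 and 5 control peaks. A region 941 bp from Smad7, an inhibitor of BMP and TGF-beta signalling, had the widest mutant H3K4me3 peak of all, 58392 bp, with 37.1% of the region under mutant H3K27ac. At the other end, only 185 bp of mutant H3K4me3 remained on a 4290 bp region in Ppm1a, a ratio of 0.0431. Little mutant H3K4me3 was also left on the regions in Wdr89 (231 bases), Foxp2 (249 bases) and Eif3h (341 bases) and on one near Ndufb4 (360 bases). Of these 5 the Wdr89 region had the most mutant H3K27ac, 3371 of 5007 bases (67.3%).

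Gaining peaks lay about as often at starts as those with H3K27ac in neither list. Start positions were not used in the selection. A coding start lay in 1199 of 3989 gaining peaks (30.1%, 28.7 to 31.5), leaving out chromosome 18, for which the table of starts had no entry. The share was 30.7% (29.4 to 32.0) with H3K27ac in neither list, 29.1% (27.8 to 30.6) in losing peaks and 24.8% (24.0 to 25.6) with both. Outside every coding gene lay 1626 gaining peaks (39.0%, 37.5 to 40.5), a higher share than the 36.3% (35.0 to 37.6), 33.0% and 34.3% of the same classes in that order. More than 50 kb from any coding gene lay 383 (9.18%, 8.34 to 10.1), between the 4.88% of peaks with both and the 11.8% (10.9 to 12.7) of peaks with neither. The gain share was spread over the chromosomes, from 41.6% on chromosome 15 to 50.3% on chromosome 19.

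The 10 gaining peaks with the most acetylated bases among those with a coding start had between 6733 and 8760 bases under mutant H3K27ac. They lay at Lrrc30, Slc16a1, Snx4, Gsg1, Ube2n, Zcchc3, Batf3, Fzd7, Hnrnpu and Barhl1. Lrrc30 led with 8760 of 9414 bases (93.1%) on chromosome 17 (67625476 to 67634889), 26946 bp from control H3K27ac. Slc16a1, which encodes a lactate and pyruvate transporter, had 8499 of 9856 bases (86.2%) in 3 H3K27ac peaks. Gsg1 and Zcchc3 were covered whole, with 7877 and 7416 bases. Gsg1 stood out for keeping little H3K4me3, with 3250 of its bases (41.3%) under the mutant H3K4me3 list. Ube2n, a ubiquitin-conjugating enzyme, had 7850 of 8511 bases (92.2%), and Batf3, a leucine zipper transcription factor, 7206 of 7929 (90.9%).

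Large gains also lay far from coding genes, and noncoding genes were left out of these distances. Of the regions more than 50 kb from any coding gene, the 6 with the most acetylated bases had 5166 to 7262 of them. The first, 92366 bp from Kcnrg, had 7262 of 8321 bases (87.3%) covered, and the next, 54456 bp from Katnal1, 6945 of 8719 (79.7%) within a mutant H3K4me3 peak of 20294 bp that joined 3 control peaks. The one farthest from a coding gene lay 169079 bp from Ppp1r3b, with 5187 of 6554 bases covered. It lay 1149 bp from a control H3K27ac peak that its own H3K27ac reached. A region 56355 bp from Grip1 had 6049 of 6574 bases (92.0%) covered and lay 57135 bp from control H3K27ac.

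Gaining peaks were spaced much like the losing ones and those with H3K27ac in neither list. Consecutive ones on a chromosome were a median of 215138 bp apart, against 181362 bp and 186540 bp in those classes, and 873 of 4152 gaps (21%) were under 50 kb, against 22.9% and 23.6%. The densest stretches of 200 kb held 7 each, at 5 places. On chromosome 8 between 31007253 and 31202466, over Dusp26, Rnf122, Tti2, Mak16 and Fut10, all 7 retained peaks without control H3K27ac gained it, none of them at a coding start. On chromosome 13 between 21879733 and 22010001, over the zinc finger gene Zfp184, Pom121l2 and Prss16, 7 of 8 did. The stretch around Sox1 on chromosome 8 (12380384 to 12550015) had 7 of 10, with 19121 of 35543 bases acetylated, Sox1 being the only coding gene there. The others were 7 of 11 on chromosome 7 around Slc17a7 and Tead2, and 7 of 15 on chromosome 11 around Itga3, Dlx3 and Dlx4, the last a share near the 45.2% of all such peaks.

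Mutant H3K27ac cover was also set out by distance from the start. The gaining peaks held 1490 starts of 1274 genes, and 850 starts (57.0%, 54.5 to 59.5) lay under mutant H3K27ac, against 65.5% (63.9 to 67.1) in peaks with both. Cover rose from 26.2% at 5 kb before the start to 58.8% at 250 bp after it, and was 21.2% at 5 kb beyond. In peaks with both it was higher throughout that range, with 44.1%, 67.7% and 39.7% at the same distances. Mutant H3K4me3 covered 96.6% of these starts and 96.6% to 97.0% in the other classes.

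Promoters in gaining peaks resembled those in peaks with H3K27ac in neither list. The median share of G and C over the 250 bases was 62.0%, against 62.8% with neither, 60.4% with both and 56.0% over all 20085 coding starts in the table. The median CpG ratio was 0.717, against 0.720 with neither, 0.756 with both and 0.758 in losing peaks. A CpG-rich window, defined as more than 55% G and C with a ratio above 0.75, was found for 39.7% (37.3 to 42.2) of starts in gaining peaks, 41.5% with neither, 45.4% (42.9 to 47.9) in losing peaks and 27.1% over all. Of the starts in retained peaks without control H3K27ac, 44.2% (41.6 to 46.9) of CpG-rich and 46.0% (43.8 to 48.2) of other starts lay in gaining peaks.

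Of the 6 motifs, the ETS core differed most between classes with and without control H3K27ac. CCGGAAG, bound by ETS family activators, was found in 9.93% (8.52 to 11.6) of windows in gaining peaks and 8.0% (6.83 to 9.34) with H3K27ac in neither list. It was found in 16.0% (14.8 to 17.3) with both, 17% (15.2 to 19) in losing peaks and 9.21% of all windows. Hat1, shown above, was one of the gaining promoters with it. The GC box, bound by Sp1, was in 64.4% (62.0 to 66.8) of gaining windows, 65.4% with neither, 58.9% with both and 43.4% of all. CCAAT, bound by NF-Y, was in 36.7% (34.3 to 39.2), against 32.1% (30.0 to 34.3) with neither and 35.3% of all. The E-box was in 9.26% of gaining windows, 8.57% with both, 8.49% in losing peaks, 7.27% with neither and 6.69% of all. The TATA box was in 6.24%, 5.77%, 6.45%, 5.22% and 11.7% in the same order. TGACGTCA was in 2.28%, 2.71%, 3.62%, 2.72% and 1.98% in that order. A match shows only that the letters are present.

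Genes that make no protein were also represented. Of 11311 long noncoding RNA starts in the table, 430 (3.8%, 3.46 to 4.17) lay in gaining peaks, 699 (6.18%) in peaks with H3K27ac in both lists, 584 (5.16%) in peaks with neither and 302 (2.67%) in losing peaks. A noncoding start without a coding one was held by 184 gaining peaks (4.61%, 4.0 to 5.31), against 5.34% (4.75 to 6.01) with neither, 3.42% in losing peaks and 3.00% (2.69 to 3.36) with both. Of 919 miRNA hairpins 17 (1.85%, 1.16 to 2.94) lay in gaining peaks, 37 (4.03%) in peaks with neither, 29 (3.16%) in losing peaks and 51 (5.55%) in peaks with both.

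Mir34b and Mir34c, an miRNA pair known as targets of p53, shared 1 gaining peak of 2760 bp over Hoatz (chr9:51101731-51104490), with 751 bases (27.2%) under mutant H3K27ac. Of the Mir34b hairpin 48 of 84 bases were acetylated, and of the Mir34c hairpin 0 of 77. Mir92b lay in a region of 2551 bp over Muc1 (chr3:89226849-89229399) that was covered whole, with a mutant H3K4me3 peak of 13248 bp. Their mature sequences from RefSeq are shown 5′ to 3′ with the seed, bases 2 to 8, in capitals. Both 3p arms of the Mir34 pair have the same seed.
mmu-miR-34b-3p: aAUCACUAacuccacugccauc
mmu-miR-34c-3p: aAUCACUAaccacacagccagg
mmu-miR-92b-3p: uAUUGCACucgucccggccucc
Of all mutant H3K27ac peaks on chromosomes 1 to 19, 4868 (4.24%) overlapped a gaining H3K4me3 peak. Among the 77109 mutant H3K27ac peaks that overlapped no control H3K27ac peak the share was 5.64%. Most H3K27ac peaks listed only in mutant embryos thus lay outside the regions described here.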

How the data were processed

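The data were 4 peak lists deposited by the authors, 1 per mark and condition, each with chromosome, start and end and no other values. These positions are the only deposited values used. The submitters' processing notes name CASAVA, Trimmomatic, Bowtie2, SAMtools, Picard, MACS2 and deepTools and the builds mm10 and GRCm38, without versions or roles. Settings, and whether the 2 libraries of a group were pooled before calling, are not given in the sources used here, and pooling or different joining limits between lists could change peak numbers and widths.

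Starts in the lists were taken to count from 0, as in BED files, and positions in the text count from 1. Genes, starts and 250-base promoter windows came from RefSeq tables of GRCm38.p6, with no genome. Starts were held for 16457 of 20665 coding genes on chromosomes 1 to 19, none of them on chromosome 18, which holds 182 of the regions. A gene with starts in peaks of several classes counts in each. Overlap, cover, nearest distances and Wilson intervals were computed with Python 3.11.15, numpy 2.4.6, pandas 2.3.3 and scipy 1.17.1, and the overlap code was tested on simulated data.

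The regions and the 19 gene lists were chosen with earlier results of these data known. Named regions were the 10 with a coding start and the 6 over 50 kb from coding genes with the most acetylated bases, the 5 densest stretches of 200 kb, the 5 widest and 5 narrowest mutant to control H3K4me3 ratios, and those at listed genes. Sample groups came from the titles. Alternatives covered overlap, distance, merging, width and gene windows.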

Additional observations from a re-analysis of the deposited data

How the results depend on the processing

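The main quantities were recomputed under the alternatives, 44 values in all, and 24 stayed within the interval or the factor of 1.5 set for them. Demanding 50% cover in both mutant lists gave 1915 regions, a gain share of 25%, a median acetyl cover of 80.7% and a median width ratio of 1.67. Merging peaks under 1 kb apart gave a share of 31.6% with a coding start. Dropping peaks under 500 bp gave a gain share of 41.8% and a median cover of 56.5%. A width of 3000 to 10000 bp gave a gain share of 49.3%, a median cover of 46.4%, 32.4% with a start, 37.4% outside coding genes and a width ratio of 1.21. A width of 1000 to 10000 bp gave 40.7%, 57.0%, 26.1%, 42.0% and 1.55 in the same order. Common limits on joining and width, an alternative added after the lists were seen, gave a gain share of 44.1%. Counting starts within 2 kb gave 32.4%, and counting all annotated genes left 26.8% outside any gene. No paired analysis was possible because both libraries of a group share a single list, and for the same reason no library could be left out. Depth is unknown, so a peak absent from a list may lie below its calling limit.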
